A study of Musa acuminata AAA Group with 4 samples.

Results

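The KUP/HAK potassium transporters described here are the 8 genes whose description reads potassium transporter in the table on potassium transport and uptake that the authors deposited. That table holds 31 genes, and the deposited tables together hold 5520. The study compared leaves and roots of banana seedlings (Musa acuminata AAA Group, cultivar Cavendish) kept for 60 days in complete Hoagland solution, the normal-potassium group, or in a low-potassium solution. Polyadenylated RNA was sequenced from 4 samples, with 1 library per combination of tissue and supply, and the labels do not say whether a sample pooled several plants. All groups share the cultivar, the treatment time and the seedling stage, and the potassium concentration of the solutions is not given in the sources used here.

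KUP/HAK proteins are membrane carriers that move potassium into cells, many of them together with protons. Some members of the family take up potassium with high affinity when it is scarce outside the root, and HAK5 of Arabidopsis and HAK1 of rice are known for transcripts that rise in potassium-starved roots. Their drive comes from proton pumps, and in Arabidopsis HAK5 is activated by a CBL calcium sensor together with a CBL-interacting kinase, which also act on the channel AKT1. The numbers in the banana names come from database matches and do not by themselves say which Arabidopsis or rice gene is the counterpart.

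The 4 libraries held between 4203924 and 4555000 fragments assigned to genes, as computed from the deposited values. Levels are FPKM, fragment numbers that the authors put on a per-length and per-depth scale. On it, levels of genes in 1 library can be compared as far as the lengths and counts behind them hold. Between leaf and root the comparison depends on the scaling, as given below. With 1 library per group there is no replicate check, and no p-value was computed here. The 95% interval of each ratio between 2 libraries allows for counting error alone. A gene is called higher or lower below where that interval excludes 1. In these whole-tissue samples, fewer cells of a type and less RNA per cell cannot be told apart. The tissue labels could not be checked between leaf and root, since no gene of the green tissue list is in both tissue tables. The leaf table lists 7 genes of green tissue, summing to 375 FPKM in normal and 1037 FPKM in low potassium. The root table lists 4 others, summing to 30.1 and 108 FPKM, and 2 casparian strip membrane proteins, which mark the root endodermis, at 5.11 and 31.0 FPKM together. All of these listed markers were higher in low potassium. Of all genes listed for leaf, 67.4% were higher and 32.6% lower, and of those listed for root, 40.4% were higher and 59.6% lower. Their part in the results below was not tested.

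All 8 transporters are listed in the deposited table of at least 1 tissue, since the authors drew the potassium table from those lists, so the counts that follow are not independent evidence of a direction. In leaf, 2 of the 8 were higher in low potassium and 4 were lower. Over all 31 genes of the potassium table, 32.3% were higher and 25.8% were lower in leaf. In root, 2 of the 8 were higher and 5 were lower, beside 48.4% higher and 32.3% lower over the 31 genes. The median log2 ratio of FPKM, low over normal potassium, was -0.23 over the 8 transporters in leaf and -0.998 in root. The other 23 genes of the potassium table, as far as both libraries held fragments, had medians of 0.33 and 1.36. All listed genes with fragments in both libraries had medians of 1.32 in leaf and -1.20 in root. Listing required an absolute log2 ratio of at least 1, so these medians mainly show which direction was the more common. Of the 8 transporters, 3 are listed in leaf and 6 in root. That limit thus bears on most of the values behind their root median and on fewer of those behind their leaf median. It also bears on the other 23 genes, of which 11 are listed as higher and 5 as lower in root.

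**Figure D1:**
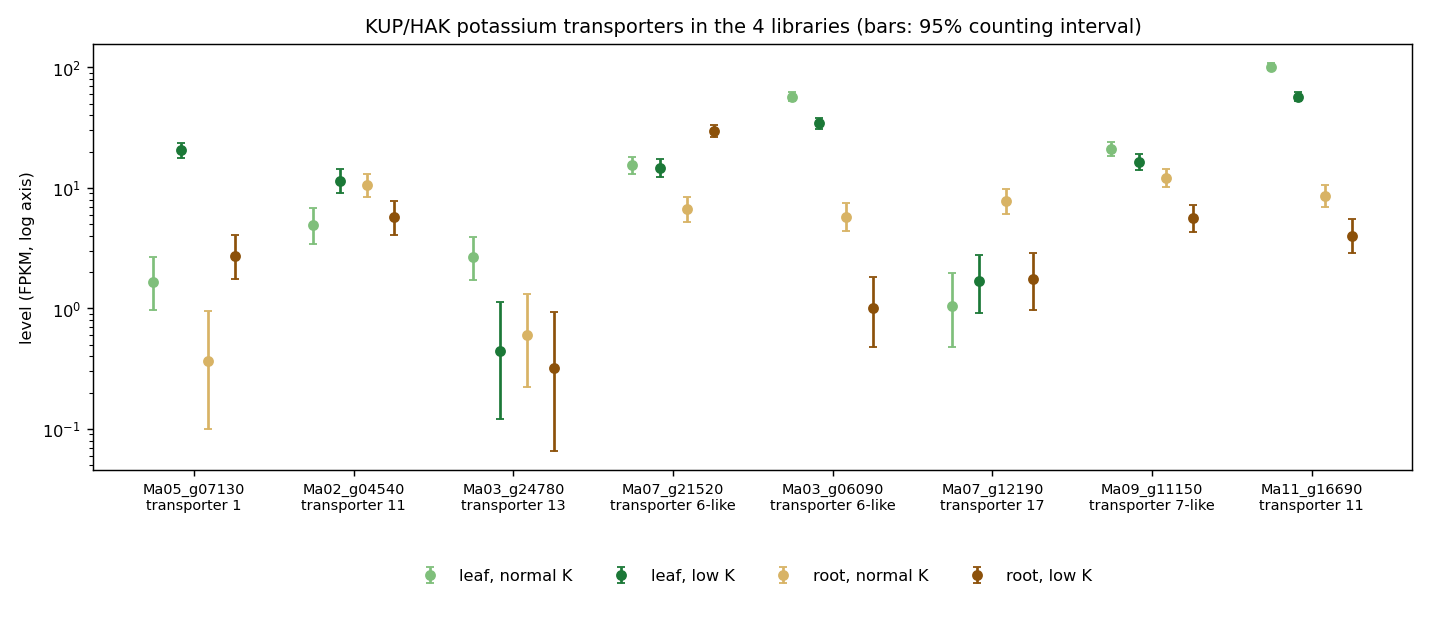
Level of each transporter in FPKM on a log axis, with 1 point per library in the order leaf normal, leaf low, root normal and root low potassium, and bars for the exact Poisson 95% counting interval. The 4 points of Ma05_g07130 run from 0.37 to 20.7 FPKM, and the green points of Ma11_g16690 and Ma03_g06090 lie far above their brown points.

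Potassium transporter 1 (Ma05_g07130) was the only one of the 8 that was higher in low potassium in both tissues. The same name is used for HAK1 of rice, a high-affinity uptake carrier of potassium-starved roots. The shared name does not by itself make the banana gene its counterpart. In leaf Ma05_g07130 measured 1.66 FPKM under normal and 20.7 FPKM under low potassium, and in root the values were 0.37 and 2.73 FPKM. The highest value was thus in leaf, and the root values rest on 4 and 24 fragments. In leaf the gene was 12.4-fold higher (interval 7.57 to 21.8). In root it was 7.38-fold higher (interval 2.53 to 29.3). The ratio in leaf was 1.69 times that in root, with an interval of 0.380 to 5.76 that includes 1. Among the listed leaf genes that were higher and had fragments in both libraries, its ratio ranked 52 of 781, and in root it ranked 226 of 1892.

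The deposited values of Ma05_g07130 rest on different gene lengths in the libraries. Fragments and FPKM together implied 2417 bases in normal-potassium leaf and 2248 bases in low-potassium leaf. They implied 2409 bases in normal-potassium root, where rounding of the FPKM allows 2378 to 2442, and 2075 bases in low-potassium root. The length was therefore shorter in low potassium by 7.0% in leaf and 13.9% in root. The lengths printed by the authors, 2247.56 and 2071.64 bases, are not whole and are close to the low-potassium ones. By fragments scaled to the library total, which use no length, the gene was 11.6-fold higher in leaf and 6.34-fold higher in root. Of the other listed transporters, Ma07_g12190 had 2091 bases under normal and 2035 under low potassium in root, and the others differed by at most 1.01%.

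The pair named potassium transporter 6-like split in root. KUP6, the Arabidopsis gene of that number, releases potassium from guard cells under abscisic acid. Ma07_g21520 measured 15.5 and 14.7 FPKM in leaf under normal and low potassium, and 6.71 and 29.6 FPKM in root. It was 4.41-fold higher in low-potassium root (interval 3.38 to 5.82), while its leaf ratio of 0.946 had an interval of 0.748 to 1.20. Ma03_g06090 measured 57.1 and 34.4 FPKM in leaf and 5.79 and 1.0 FPKM in root. It was lower in both tissues, 1.66-fold in leaf (interval 1.45 to 1.91) and 5.79-fold in root (interval 2.94 to 12.7). In normal-potassium root the levels of the pair had overlapping counting intervals, and in low-potassium root Ma07_g21520 stood highest and Ma03_g06090 at place 7 of the 8.

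The pair named probable potassium transporter 11 split in leaf. Ma11_g16690, the most abundant of the 8 in leaf, measured 102 and 57.1 FPKM there under normal and low potassium, and 8.55 and 4.02 FPKM in root. It was lower in both tissues, 1.78-fold in leaf (interval 1.60 to 1.98) and 2.13-fold in root (interval 1.45 to 3.17). Ma02_g04540 measured 4.92 and 11.5 FPKM in leaf and 10.6 and 5.72 FPKM in root. Under low potassium its level was 2.34-fold higher in leaf (interval 1.55 to 3.59) and 1.85-fold lower in root (interval 1.25 to 2.76), so its order between the tissues turned. The deposited fragment counts of both genes and of Ma09_g11150 are not whole numbers, which can arise when a program splits fragments between near copies, and their values are uncertain for that reason.

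The remaining transporters were lower in at least 1 tissue. Potassium transporter 7-like (Ma09_g11150), whose Arabidopsis namesake takes part in root uptake and in loading potassium into the xylem, measured 21.2 and 16.4 FPKM in leaf and 12.1 and 5.59 FPKM in root. It was 1.30-fold lower in leaf (interval 1.06 to 1.59) and 2.16-fold lower in root (interval 1.59 to 2.98). Probable potassium transporter 17 (Ma07_g12190) measured 1.05 and 1.69 FPKM in leaf, from about 9 and 14 fragments, and 7.8 and 1.74 FPKM in root. Its root level was 4.48-fold lower (interval 2.55 to 8.42), and its leaf ratio of 1.61 had an interval of 0.642 to 4.17. Probable potassium transporter 13 (Ma03_g24780), the lowest of the 8 in both low-potassium libraries, measured 2.66 and 0.44 FPKM in leaf and 0.60 and 0.32 FPKM in root. It was 6.05-fold lower in leaf (interval 2.09 to 23.9) from 25 and 4 fragments. In root it had 6 and 3 fragments, where a difference of this size was not detectable at this depth (ratio 0.533, interval 0.0855 to 2.47).

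**Figure D2:**
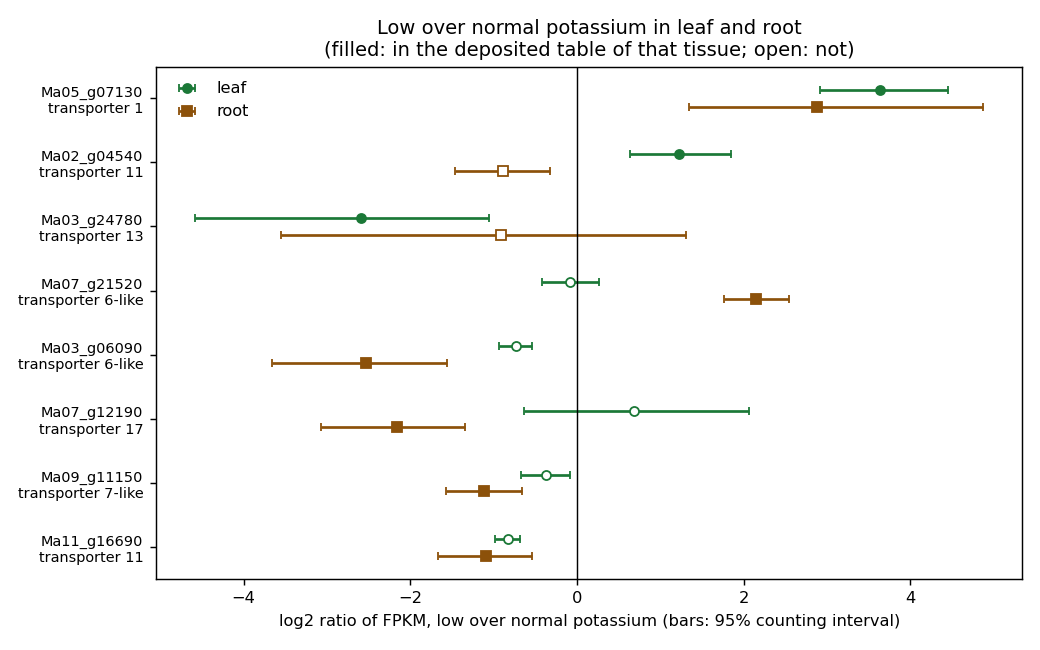
Log2 ratio of FPKM in low over normal potassium for each transporter, in leaf (circles) and root (squares), with the 95% counting interval as bars. Filled symbols mark genes in the deposited table of that tissue and open symbols genes not in it, and Ma05_g07130 is the only gene with both symbols and both bars right of 0.

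The authors listed these genes in 9 entries, with an FDR limit of 0.001. That FDR compares 1 library with 1 library, so it holds no spread between plants. By listing, 2 transporters were higher and 1 lower in leaf, beside 22.6% and 9.68% of the 31 genes. In root 2 were listed as higher and 4 as lower, beside 41.9% and 29% of the 31 genes. In leaf, Ma11_g16690, Ma03_g06090 and Ma09_g11150 were lower by the counting interval without being listed, and so was Ma02_g04540 in root. These 4 differences were each under 2-fold.

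The ratio between low and normal potassium itself differed between leaf and root, beyond counting error, for 5 of the 8 transporters. The root ratio was the larger for 1 and the leaf ratio for 4. With counts scaled to the listed genes the call for Ma09_g11150 was lost, which left 4. Over the 24 potassium table genes with fragments in all libraries, the root ratio was the larger for 41.7% and the leaf ratio for 33.3%. Only 1 of the 8 transporters is listed in both tissues. Listing in 1 tissue alone favours a difference between the tissues, so the 5 calls are not independent evidence of one. For Ma07_g21520 the root ratio was 4.66 times the leaf ratio (interval 3.23 to 6.70). The leaf ratio was the larger by 7.22 times for Ma07_g12190 (interval 2.33 to 22.1), 4.32 times for Ma02_g04540 (interval 2.41 to 7.76), 3.48 times for Ma03_g06090 (interval 1.74 to 7.72) and 1.67 times for Ma09_g11150 (interval 1.14 to 2.44). For Ma11_g16690 the leaf ratio was 1.19 times the root ratio (interval 0.803 to 1.81), and for Ma03_g24780 the root ratio was 3.22 times the leaf ratio with an interval of 0.356 to 24.4.

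Most transporters were more abundant in leaf than in root. Under normal potassium 6 of the 8 were higher in leaf and 2 were higher in root, and each direction held 45.2% of the 31 genes. Ma11_g16690 was 11.9-fold higher in leaf (interval 9.56 to 14.9) and Ma03_g06090 9.86-fold (interval 7.56 to 13.1). The genes higher in root were Ma07_g12190, by 7.43-fold (interval 3.72 to 16.9), and Ma02_g04540, by 2.15-fold (interval 1.43 to 3.31). Under low potassium 5 were higher in leaf and 1 in root, beside 45.2% and 38.7% of the 31 genes. Ma03_g06090 was then 34.4-fold higher in leaf (interval 18.4 to 72.3) and Ma05_g07130 7.56-fold (interval 4.93 to 12.1).

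The order of the tissues was not the same under both supplies for some genes. Ma07_g21520 was 2.31-fold higher in leaf than in root under normal potassium (interval 1.73 to 3.12) and 2.02-fold higher in root under low potassium (interval 1.64 to 2.48). Ma02_g04540 went the other way, from higher in root to 2.01-fold higher in leaf (interval 1.36 to 2.99). Ma07_g12190 went from higher in root to a leaf over root ratio of 0.971 (interval 0.428 to 2.13). With counts scaled to the genes in both tissue tables, Ma02_g04540 under normal potassium turns to higher in leaf (log2 ratio 0.89, interval 0.27 to 1.48). Under low potassium Ma07_g21520 turns to a log2 ratio of 0.24, with an interval of -0.053 to 0.55 that includes 0. Ma07_g12190, not called in either direction before, turns to 1.22 (interval 0.034 to 2.35). These orders thus depend on the scaling. With it, the interval of Ma07_g12190 under normal potassium includes 1 (log2 ratio of leaf over root -0.94), and no transporter is called higher in root. That scaling rests on genes listed for a difference between potassium supplies. They are not a neutral reference, so it cannot decide which order holds.

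Summed over the 8 transporters, the level was 206 FPKM in normal-potassium leaf and 157 FPKM in low-potassium leaf, 1.31-fold lower (interval 1.23 to 1.40). In root the sums were 52.5 and 50.7 FPKM, a ratio of 0.967 with an interval of 0.853 to 1.10. These sums cover the 8 genes of the table and not the whole family. Under normal potassium, 6 of the 8 root levels lay between 5.79 and 12.1 FPKM, each overlapping the next in counting interval. Under low potassium Ma07_g21520 stood apart from the next gene, Ma02_g04540, at 5.72 FPKM. The share of Ma07_g21520 in the root fragments of the 8 genes was 13.3% (exact binomial interval 10.5 to 16.5) in normal potassium and 60.0% (interval 55.4 to 64.4) in low potassium. In all, 50.2 percentage points of the summed root FPKM were held by different members in low than in normal potassium, against 19.8 points in leaf.

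Without Ma07_g21520 the root sum was 45.8 FPKM in normal and 21.1 FPKM in low potassium, 2.17-fold lower, so the near-equal sums rest on this gene. In leaf, Ma11_g16690 held 49.4% of the fragments (interval 47.2 to 51.6) in normal and 37.2% (interval 34.7 to 39.7) in low potassium. The share of Ma05_g07130 was 0.833% (interval 0.486 to 1.33) and 12.9% (interval 11.2 to 14.7). Without Ma11_g16690 the leaf sum was 1.04-fold lower. In leaf the first 4 genes by level under normal potassium, Ma11_g16690, Ma03_g06090, Ma09_g11150 and Ma07_g21520, had counting intervals that did not overlap, while those of the other 4 each overlapped the next.

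**Figure D3:**
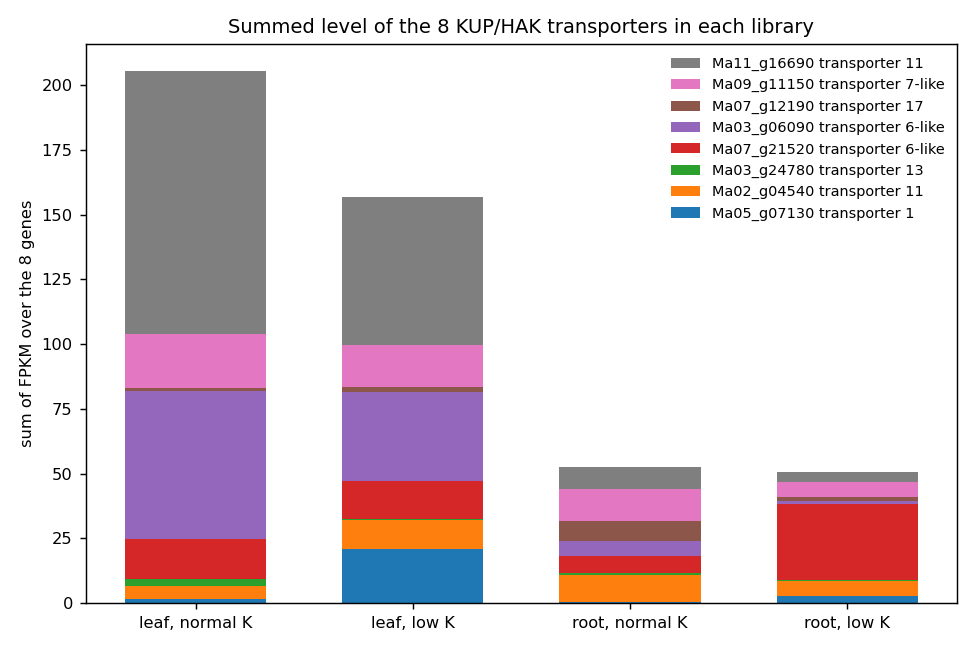
Sum of FPKM over the 8 transporters in each library, stacked by gene from Ma05_g07130 at the bottom to Ma11_g16690 at the top. The root columns are close in height, at 52.5 and 50.7 FPKM, while Ma07_g21520 goes from 6.71 to 29.6 FPKM within them.

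Other genes of potassium transport were taken from lists set by words in the descriptions. Of the 6 potassium channels, 1 was higher and 1 lower in leaf, and 2 were higher and 2 lower in root. The channel subunit beta gene (Ma09_g24000) measured 163 and 71.2 FPKM in root. The channel KAT4-like (Ma05_g09470) measured 22.3 and 59.2 FPKM there. Of the 14 CBL-interacting protein kinases, 6 were higher and 3 lower in leaf, and 11 were higher and 1 lower in root. Over all 31 genes of the potassium table, 32.3% were higher and 25.8% lower in leaf, and 48.4% higher and 32.3% lower in root. The authors drew these genes from their lists, so the counts are not independent evidence of a direction. Kinase 11 (Ma09_g04710), with the highest mean over the 4 libraries though not the highest in either leaf library, was 2.21-fold higher in leaf (interval 1.88 to 2.62) and 1.98-fold higher in root (interval 1.81 to 2.16).

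Proton pumps, which supply the gradient that proton-coupled carriers use, were listed in opposite directions in root by membrane. Of all genes listed for root, 40.4% were higher and 59.6% lower. Both listed plasma membrane ATPase genes were higher. The more abundant, Ma10_g30850, measured 52.2 and 155 FPKM and was 2.96-fold higher (interval 2.71 to 3.24), and Ma03_g29190 was 2.40-fold higher (interval 1.79 to 3.23). All 12 listed genes of vacuolar pumps, which load protons into the vacuole, were lower, by 2.06-fold to 6.36-fold. Among them, the vacuolar pyrophosphate-energized pump Ma03_g12920 measured 210 and 68.0 FPKM, and the V-type ATPase subunit A gene Ma01_g01200 measured 196 and 92.4 FPKM. The counts of these 4 genes are not whole, so their values are uncertain. Most of the other vacuolar pump genes also have counts that are not whole, so the 12 may not be separate measurements. In leaf the table lists 1 plasma membrane ATPase gene (Ma04_g27230), which was 4.06-fold lower (interval 1.84 to 10.2) from 33 and 8 fragments, and no vacuolar pump.

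The CBL calcium sensors listed in root, calcineurin B-like protein 4 (Ma01_g07300) and 7 (Ma01_g07290), were higher by 2.61-fold (interval 1.86 to 3.71) and by 3.16-fold (interval 1.70 to 6.28), and none is listed in leaf. Of the exchangers and antiporters, leaf lists 3 as higher and 2 as lower, and root lists 2 as higher and 1 as lower, beside 67.4% higher of all genes listed for leaf and 40.4% higher of those listed for root. The most abundant in leaf, vacuolar cation/proton exchanger 1a-like (Ma04_g06610), measured 372 and 974 FPKM, and the most abundant in root, sodium/hydrogen exchanger 8 (Ma08_g18780), measured 84.7 and 235 FPKM. The sodium transporter HKT1-like gene (Ma01_g18740) was 9.61-fold lower in leaf (interval 2.33 to 84.8) from 20 and 2 fragments. The counts of both sensors, of Ma04_g06610, of kinase 11 in leaf and of both channels named above are not whole either. No further gene described as a potassium transporter is in either tissue table.

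For each transporter, the gene of the potassium table with the most similar pair of differences was found, as the distance in the plane of the leaf and root log2 differences of FPKM + 1 over the 4 libraries. The closest pair was Ma09_g11150 and the channel KAT2-like gene Ma06_g28610, at a distance of 0.033. The other 2 pairs under 0.2 apart include levels under 1 FPKM, where the added 1 weighs most. Ma07_g21520 and kinase 12 (Ma06_g28510) were 0.17 apart, but kinase 12 had only 0.17 and 0 FPKM in leaf. Ma03_g24780 and the channel KAT3-like gene Ma07_g09180 were 0.14 apart, but had few root fragments, and their leaf log2 ratios without the added 1 were -2.60 and -1.75. Ma05_g07130 had the most distant neighbour, kinase 1 (Ma07_g17570), at 1.504. Only Ma03_g06090 had another transporter nearest to it, Ma11_g16690, at 0.84.

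**Figure D4:**
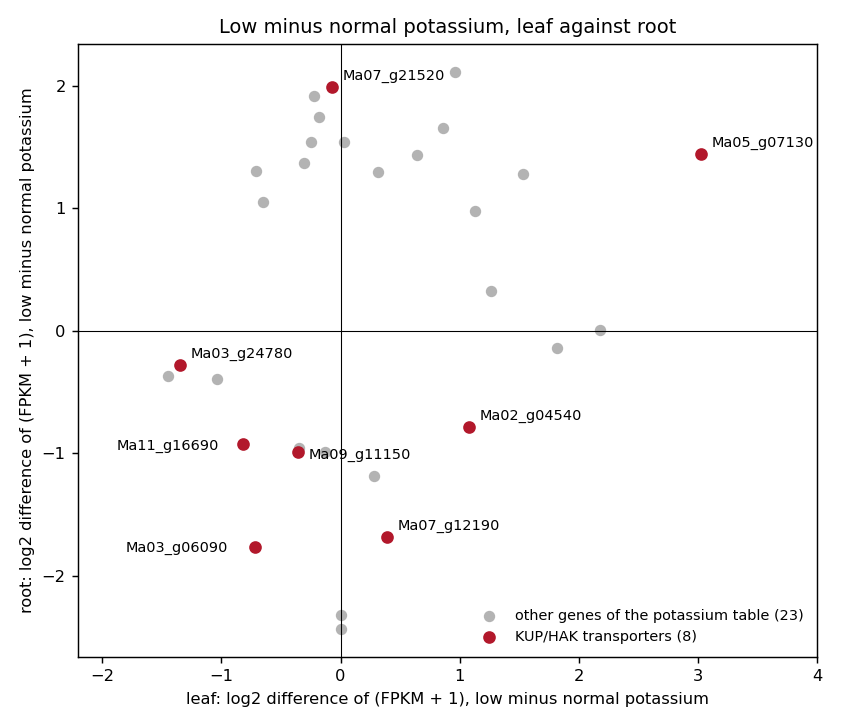
Log2 difference of FPKM + 1, low minus normal potassium, in leaf (horizontal) and root (vertical) for the 8 transporters (red, named) and the other 23 genes of the potassium table (grey). Ma05_g07130 lies alone at the right, at 3.02 in leaf and 1.45 in root, and 6 of the 8 red points lie below 0 in root.

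All 8 genes carry the same orthology term in the deposited annotation, that of the KUP system potassium uptake protein, and their best banana match there was found in the RefSeq table of the Cavendish_Baxijiao_AAA assembly. The bit score of that match per codon of the deposited length was 1.01 for Ma09_g11150 and 1.60 for Ma02_g04540, and between 1.82 and 2.27 for the others. The matches of Ma07_g21520 and Ma09_g11150 are neighbouring genes in that assembly. The ids of the 2 genes carry different prefixes, and the match of Ma09_g11150 is the weakest per codon. Whether the 2 genes themselves are neighbours was not tested. The lengths of the genes lie between 1698 bases for Ma02_g04540 and 2520 bases for Ma09_g11150.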

How the data were processed

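The kit steps named in the labels' protocols (CTAB extraction, DNase, poly(A) enrichment, random priming) do not mark the strand. The authors deposited estimated counts, FPKM, a log2 ratio, a p-value and an FDR per gene in 1 table per tissue, per the file headers, and a potassium table whose values match the FPKM columns within 0.006. The tissue tables hold genes with an FDR under 0.001 and an absolute log2 ratio of at least 1. How reads were aligned, counted and tested, and on which build, is not given in the sources used here. The deposited estimated counts were rounded for intervals.

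Library totals were fitted from count over FPKM against gene length, for genes above 100 counts and 5 FPKM within 1% of the line. Counts of unlisted genes were computed from FPKM, length and total. Intervals (95%, scipy 1.17.1) are exact binomial (Clopper-Pearson) for ratios and shares, exact Poisson for levels, conditional odds ratio between tissues and log-normal for sums. They cover counting error only, as if fragments were independent, which PCR copies are not. With 1 library per group they hold no spread between plants. Those of ratios between 2 libraries were tested on simulated independent Poisson counts, which is what they assume. The simulation held no PCR copies and no counts that are not whole, so it cannot speak for those. The members and lists were chosen with earlier results of these data known. All 8 members are named, with their nearest genes, and of each other list at most the 2 genes with the highest mean FPKM. The leaf gene Ma04_g27230 was named as the single one of its kind listed there. Alternatives changed the pseudocount, measure, scaling, low-count filter, genes with counts that are not whole, and call rule.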

Additional observations from a re-analysis of the deposited data

Results flagged for a closer look

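For 3 transporters the ratios of low over normal potassium in leaf and root lay on opposite sides of 1. Only Ma02_g04540 was called in opposite directions. Ma02_g04540 was higher in leaf and lower in root, with ratios that differed by 4.32 times. Ma07_g21520 was near equal in leaf (ratio 0.946) and higher in root, with ratios that differed by 4.66 times. Ma07_g12190 was lower in root, with a leaf ratio of 1.61, and its ratios differed by 7.22 times. The difference was not tested over replicates, since there is 1 library per group, and the leaf interval includes 1 for Ma07_g21520 and Ma07_g12190.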

How the results depend on the processing

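No paired analysis was possible because each group holds 1 library. Of 178 values of single transporters under the alternatives planned, 173 kept their direction and their side of 1. Most of them could not do otherwise. A pseudocount cannot move an interval across 1, and the limits to 10 fragments or whole counts only left genes out. The fitted library totals were derived from the same FPKM, and they changed no call among these values. With counts scaled to the listed genes, 27 values kept their call and 3 reversed. Among the values that did not reverse, 1 interval came to exclude 1 and 1 came to include it. Among those that reversed, the interval of Ma07_g21520 in low potassium also came to include 1. That of Ma07_g12190 in low potassium came to exclude it. Pseudocounts could not be applied to the interval of the difference between tissues. Scaling to the listed genes shifts leaf by -0.48, root by -0.0016 and leaf over root by 1.996 and 1.26 (log2) under normal and low potassium, and the cause of what it moves is this shift. The listed genes were selected for a difference between potassium supplies, so this scaling has no neutral reference. It moved the leaf median to -0.71, left 0 transporters higher in root than in leaf under either potassium supply, and took the leaf sum to a ratio of 0.544. It also reversed the log2 ratio of leaf over root to 0.89 for Ma02_g04540 in normal potassium, and to 0.24 for Ma07_g21520 and 1.22 for Ma07_g12190 in low potassium, and put the interval of Ma07_g21520 in leaf below 1 (log2 ratio -0.56), while that of Ma07_g12190 in normal potassium came to include 1 (log2 ratio -0.94). With only the 5 genes of whole counts (within 0.02), fewer genes were counted. The calls were then 1 higher and 2 lower in leaf, 2 lower in root, 1 higher in root than leaf in normal potassium, 2 higher in leaf than root in low potassium, and 3 differing between tissues. By listing, or by a 2-fold limit, 1 was lower in leaf. Left out after seeing the data, Ma11_g16690 took the leaf sum ratio to 0.957 and Ma07_g21520 the root one to 0.462.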

Other observations

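A further gene in the leaf table, Ma06_g07320, carries the KUP orthology term with a bit score of 84, against 851 to 1565 for the 8 transporters, and is described as an uncharacterized protein. It measured 12.6 FPKM in normal-potassium leaf and 4.37 FPKM in low-potassium leaf, and it is not in the root table.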
